A study of Oryza sativa with 8 samples.

Results

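A set of 7 sodium and potassium transporter genes of rice was examined in roots of plants that overexpress the transcription factor OsERF48. They were chosen by locus identifier, with no limit set on their measured levels, though with earlier results of these data known. All 7 were found among the 37869 genes of the gene table. The set holds the sodium transporter genes OsHKT1;5 and OsHKT2;1, the potassium uptake genes OsAKT1, OsHAK1 and OsHAK5, and the sodium/proton antiporter genes OsSOS1 and OsNHX1. Total RNA came from roots of 2-week-old plants of the cultivar Ilmi grown in soil without a stress treatment. The 4 ROX libraries came from homozygous single-copy transgenic plants that carry OsERF48 behind the root-specific RCc3 promoter, and the 4 nontransgenic (NT) libraries came from untransformed Ilmi. According to the sample labels, ROX plants were of the lines #2 and #6, but the column names of the tables do not give the line, and libraries of both lines were therefore analysed together.

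The column names come in 2 styles. Libraries of one style carry the word Root and those of the other the word set, and each style covers 2 ROX and 2 NT libraries, called the Root and the Set libraries below. The Set names give neither promoter nor tissue, which were taken from the sample labels. Whether the 2 styles correspond to the 2 ROX lines is not stated. A difference in the ROX effect between styles therefore cannot be told apart from a difference between lines. Every comparison was made over all 8 libraries and within each style, since libraries of the same style correlated with Pearson coefficients of 0.962 to 0.997 on log2(FPKM + 1) and libraries of different styles with coefficients of 0.828 to 0.888. FPKM is the number of fragments assigned to a gene, divided by its length and by the number of mapped fragments. Depth came to between 37600000 and 49700000 fragments per library. OsERF48 itself was at 464 and 470 FPKM in Root ROX libraries and 816 and 612 FPKM in Set ROX libraries, against 86.6 and 86.2 FPKM in Root NT libraries and 65.9 and 59.3 FPKM in Set NT libraries, so all ROX libraries lay above all NT libraries. The root marker RCc3 was detected at high levels throughout, at 152 and 161 FPKM in Root ROX and 1581 and 1540 FPKM in Set ROX libraries, against 321 and 307 FPKM in Root NT and 1236 and 1608 FPKM in Set NT libraries. It was thus lower in ROX than in NT among the Root libraries and several times higher in Set than in Root libraries. A list of 5 leaf genes (photosynthesis genes) was detected in every library and summed to 13.9 and 14.0 FPKM in Root ROX and 6.14 and 5.25 FPKM in Set ROX libraries, against 30.5 and 28.9 FPKM in Root NT and 13.8 and 10.8 FPKM in Set NT libraries. All 5 leaf genes were lower in ROX than in NT among the Root libraries and 4 of the 5 among the Set libraries, and the part of these markers in the differences given below was not tested. The study describes technical replicates, and no label says which libraries are such, so p-values measure the spread between these libraries, which may be technical.

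Sodium is toxic to most plant cells while potassium is their main cation, and roots control both at several membranes. HKT transporters carry sodium, some of them together with potassium. In rice, OsHKT2;1 takes up sodium into potassium-starved roots, and OsHKT1;5 withdraws sodium from the xylem and so keeps it from the shoot. AKT1 channels and HAK transporters bring potassium into the root, the channel mainly at ample and the HAK transporters at low external supply. SOS1 expels sodium across the plasma membrane, and NHX1 moves sodium or potassium into the vacuole, both in exchange for protons.

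Over all 8 libraries, no transporter gene passed the test between ROX and NT roots. In limma fits on log2(FPKM + 1), the differences ranged from -0.37 (OsAKT1) to 0.52 (OsHKT2;1) on the log2 scale, and 0 of the 7 passed the limits used for a call, a 2-fold change at an unadjusted p below 0.05. Among all 26136 genes tested, 0.75% were called higher and 0.157% lower in ROX roots, and 0.172% had a Benjamini-Hochberg adjusted p under 0.05. The 7 adjusted p-values were all 0.999983, and in a two-sided exact permutation test of each gene over the 8 libraries p was between 0.514 and 0.8, where 0.0286 is the smallest value possible. The ranges of ROX and NT libraries overlapped for all 7 genes. By comparison, 2.07% of the genes tested had all ROX libraries above all NT libraries and 3.3% had all below. The overlap and the permutation test pool both styles, whose levels differed more than the genotypes for most of the genes. Neither can therefore decide whether ROX and NT differed within a style. The median difference of the 7 genes was 0.17, beside -0.05 for all genes tested. With the library style as a covariate, OsNHX1 (log2 difference 0.50, adjusted p = 0.0668) and OsAKT1 (log2 difference -0.37, adjusted p = 0.103) fell below 0.05 before adjustment in limma, and neither reached a 2-fold change.

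The spread that this comparison had to overcome was mostly that between library styles. Between Root and Set libraries the levels of the 7 genes differed by up to 41.7-fold within the same genotype, whereas ROX and NT libraries of the same style differed by at most 3.45-fold. The plot of levels by library shows both differences for each gene.

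**Figure D1:**
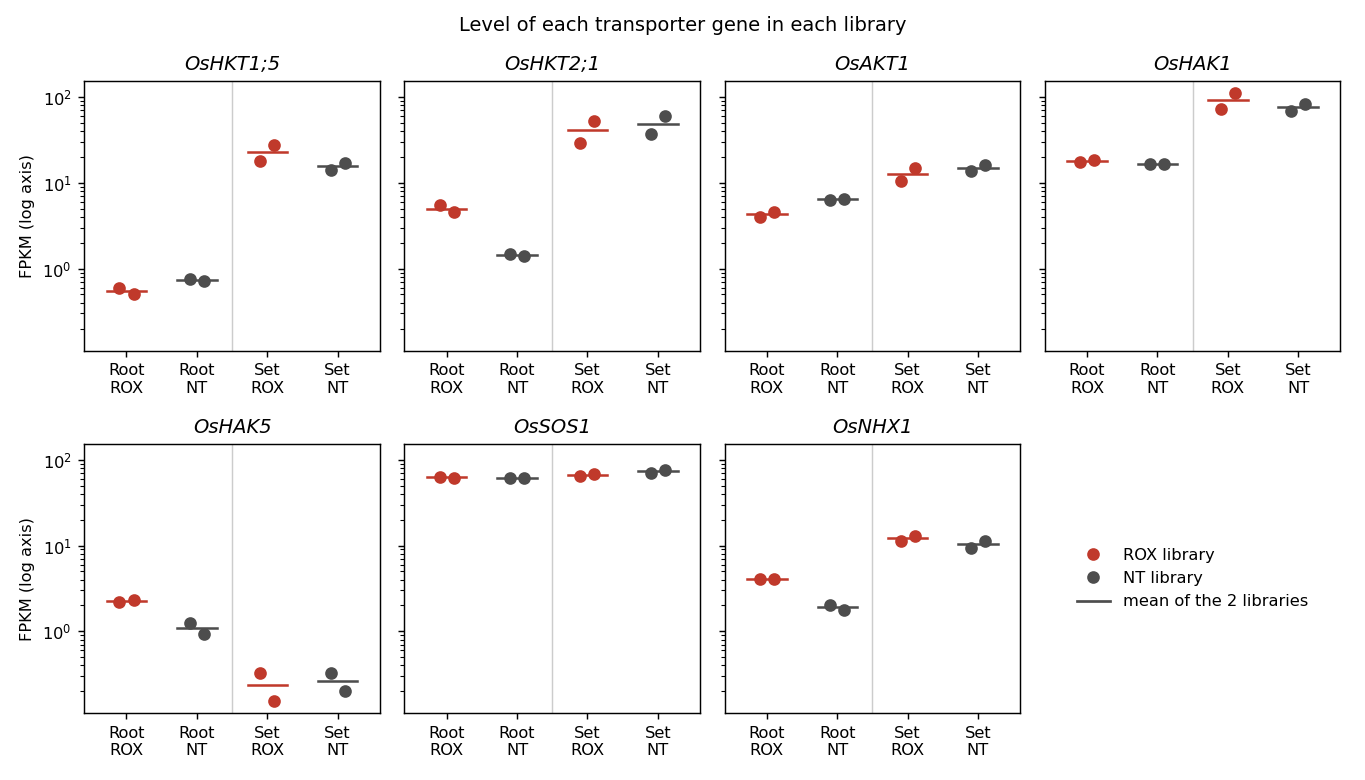
FPKM of the 7 transporter genes on a log axis in the 8 libraries, with Root ROX, Root NT, Set ROX and Set NT libraries from left to right in each panel, 1 point per library and a line at the mean of the 2 libraries. OsHKT1;5 and OsHKT2;1 show the widest gap between Set and Root libraries, OsHAK5 is higher in Root libraries, and OsSOS1 stays between 60.6 and 75.5 FPKM throughout.

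The sodium transporter gene OsHKT2;1 (Os06g0701700; chromosome 6, 29538938 to 29541203, IRGSP-1.0) was higher in ROX than in NT roots among the Root libraries. It was at 5.45 and 4.57 FPKM in the Root ROX libraries, against 1.499 and 1.404 FPKM in the Root NT libraries, a mean of 5.01 ± 0.62 against 1.45 ± 0.07 FPKM (SD, n = 2 each). Both ROX values lay above both NT values. The ratio of means was 3.45, and the limma fit gave a log2 difference of 1.29 with an SE of 0.30 (adjusted p = 0.0139). Leaving out either Root ROX or either Root NT library took the adjusted p to between 0.0565 and 0.0840. OsHKT2;1 was the 1 of the 7 genes called higher in the Root libraries, where 3.96% of all genes tested were called higher, and 0 of the 7 were called lower, beside 0.937% of all genes. These values rest on about 335 and 337 fragments in the ROX libraries and 95 and 100 in the NT libraries.

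OsHKT2;1 was far more abundant in the Set libraries, and its values there overlapped between genotypes. It was at 29.0 and 53.3 FPKM in the Set ROX libraries, against 37.4 and 59.6 FPKM in the Set NT libraries. The log2 difference was -0.26 with an SE of 0.30 (adjusted p = 0.652 in limma). None of the 7 genes was called in the Set libraries, where 0.888% of all genes tested were called higher and 0.631% lower. The difference between the Root and the Set effect of OsHKT2;1, the interaction term, was 1.55 with an SE of 0.42 (adjusted p = 0.0387 in limma). That term had an adjusted p under 0.05 for 3 of the 7 transporter genes and for 21.5% of all genes tested. Leaving out any of 6 of the 8 libraries (both Root ROX, both Root NT, Set ROX 1 or Set NT 2) took the adjusted p of the interaction to between 0.0510 and 0.125.

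OsHKT2;1 lies 2384 bases from Os06g0701600, another locus of the HKT family, which was listed at 0 FPKM in all 8 libraries. How fragments that match both loci were assigned is not given in the sources used here. Of the 2 transcripts annotated for OsHKT2;1, the longer one held between 95.5% and nearly all of its FPKM. The shorter reached 4.46% in the library Root ROX 1 and at most 0.0123% in each of the others.

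OsHKT1;5 (Os01g0307500; chromosome 1, 11458956 to 11463442), the transporter that removes sodium from the xylem sap, was scarce in the Root libraries. Its levels there were 0.589 and 0.505 FPKM in ROX, against 0.749 and 0.715 FPKM in NT libraries, or about 44 fragments in each ROX library and 56 and 60 in the NT libraries. The log2 difference of -0.16 with an SE of 0.18 did not pass the test (adjusted p = 0.514 in limma). Set libraries held it at 18.2 and 27.4 FPKM in ROX, against 14.2 and 17.0 FPKM in NT libraries. There the ROX values lay above the NT values, with a ratio of means of 1.47 and a log2 difference of 0.50 with an SE of 0.18 (adjusted p = 0.141), short of the 2-fold limit. The Root and Set effects pointed in opposite directions, and the interaction of -0.67 had an adjusted p of 0.103 in limma, or 0.00980 without the library Set ROX 1.

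Among the genes of potassium uptake, OsAKT1 (Os01g0648000; chromosome 1, 26119741 to 26126165), the inward channel, had lower values in ROX roots among the Root libraries. It was at 4.01 and 4.57 FPKM in ROX, against 6.32 and 6.55 FPKM in NT libraries, with both ROX values below both NT values. The ratio of means was 0.666, and the log2 difference of -0.49 with an SE of 0.16 had an adjusted p of 0.0461 in limma, without reaching 2-fold. That adjusted p was between 0.0508 and 0.0917 with no filter on low values, either other scaling or no variance trend, and between 0.106 and 0.200 when either Root ROX or either Root NT library was left out. Among the Set libraries it was at 10.4 and 14.8 FPKM in ROX, against 13.7 and 16.3 FPKM in NT libraries. Here the groups overlapped (log2 difference -0.25, SE 0.16, adjusted p = 0.390), and the interaction was -0.24 (adjusted p = 0.475).

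OsHAK1 (Os04g0401700; chromosome 4, 19886674 to 19892355), a high-affinity potassium transporter gene, was the most abundant of the potassium uptake genes in every library. It was at 17.7 and 18.3 FPKM in Root ROX, against 16.5 and 16.7 FPKM in Root NT libraries, and at 72.9 and 111 FPKM in Set ROX, against 69.3 and 83.9 FPKM in Set NT libraries. The log2 differences were 0.11 with an SE of 0.18 in the Root libraries (adjusted p = 0.673) and 0.23 with an SE of 0.18 in the Set libraries (adjusted p = 0.481), and neither passed the test in limma. The Set difference was 0.53 (adjusted p = 0.0399) without the library Set ROX 1 and -0.064 (adjusted p = 0.765) without Set ROX 2.

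OsHAK5 (Os01g0930400; chromosome 1, 40825718 to 40829894), another high-affinity potassium transporter gene, had the lowest levels of the uptake genes. In the Root libraries it was at 2.19 and 2.35 FPKM in ROX, against 1.24 and 0.939 FPKM in NT libraries. Both ROX values lay above both NT values and the ratio of mean FPKM was 2.09. On the log2(FPKM + 1) scale, which understates changes of low genes, the difference was 0.65 with an SE of 0.12 (adjusted p = 0.00499 in limma), so the gene missed the 2-fold limit. With a pseudocount of 0.1 instead of 1 it was called higher, with a log2 difference of 1.01 and an adjusted p of 0.0403. Its Set values were 0.325 and 0.153 FPKM in ROX, against 0.328 and 0.199 FPKM in NT libraries. These overlapping values correspond to about 35 and 16 fragments in ROX and 35 and 20 in NT libraries. The interaction was 0.68 with an SE of 0.16 (adjusted p = 0.0258), and leaving out either Root ROX library, Root NT 2, Set ROX 2 or Set NT 1 took its adjusted p to between 0.0507 and 0.0962. With the pseudocount of 0.1 the interaction was 1.13 and did not pass (adjusted p = 0.110 in limma).

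Of the antiporter genes, OsNHX1 (Os07g0666900; chromosome 7, 28164424 to 28169307), which encodes the vacuolar exchanger, was higher in ROX than in NT libraries of the same style. In the Root libraries it was at 4.09 and 4.04 FPKM in ROX, against 2.05 and 1.77 FPKM in NT libraries, a ratio of mean FPKM of 2.13. The log2 difference was 0.80 with an SE of 0.11 (adjusted p = 0.00158 in limma), under the 2-fold limit with a pseudocount of 1 and above it with 0.1, where it was 1.05 (adjusted p = 9.6e-04). Among the Set libraries it was at 11.4 and 12.9 FPKM in ROX, against 9.48 and 11.3 FPKM in NT libraries. Both Set ROX values lay above both Set NT values, the nearest by little, and the log2 difference of 0.20 with an SE of 0.11 did not pass the test (adjusted p = 0.303). The interaction was 0.60 with an SE of 0.15 (adjusted p = 0.0319), with adjusted p-values from 0.0630 to 0.119 when both Root ROX, both Root NT, Set ROX 1 or Set NT 2 were left out one at a time.

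OsSOS1 (Os12g0641100; chromosome 12, 27495775 to 27507002), the gene of the plasma membrane exporter, varied least. It was at 63.7 and 61.4 FPKM in Root ROX, against 60.6 and 61.9 FPKM in Root NT libraries, where the groups overlapped. Its Set values were 64.4 and 68.6 FPKM in ROX, against 71.1 and 75.5 FPKM in NT libraries. There the ROX values lay below the NT values, with a ratio of means of 0.907 and a log2 difference of -0.14 with an SE of 0.06 (adjusted p = 0.205 in limma). Its values rest on 6736 to 10456 fragments per library.

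**Figure D2:**
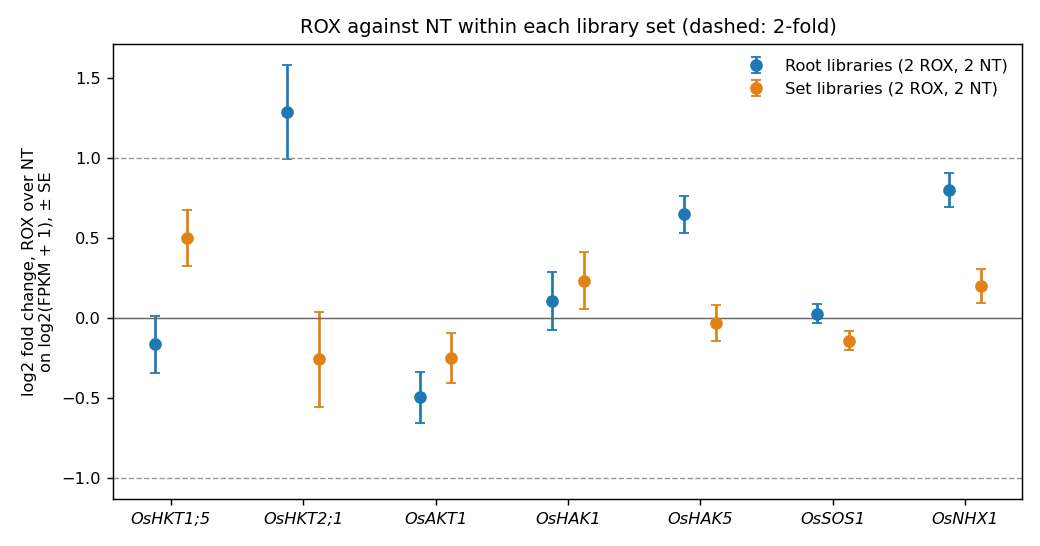
Log2 fold change of ROX over NT on log2(FPKM + 1), with its SE from limma, for the 7 transporter genes within each library style, with 2 ROX and 2 NT libraries. The SE of a gene is the same in both styles, since it comes from 1 fit over all 8 libraries. OsHKT2;1 in the Root libraries, at 1.29, is the one point past the dashed 2-fold lines.

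For most of the transporter genes the level differed more between library styles than between genotypes. In NT roots, 5 of the 7 genes were called higher in Set than in Root libraries (adjusted p under 0.05 and a 2-fold change in limma), and 0 of the 7 lower. Of all genes tested, 13.7% were called higher and 6.81% lower. The 5 were both HKT genes, OsAKT1, OsHAK1 and OsNHX1. The mean of OsHKT2;1 was 48.5 FPKM in Set NT and 1.45 FPKM in Root NT libraries, 33.4-fold apart (log2 difference 4.30, SE 0.30, adjusted p = 1.6e-05). OsHKT1;5 followed at 15.6 FPKM in Set NT and 0.732 FPKM in Root NT libraries, 21.3-fold apart (log2 difference 3.25, SE 0.18, adjusted p = 6.2e-06). The ratio was 5.46 for OsNHX1, 4.62 for OsHAK1 and 2.33 for OsAKT1, which missed the 2-fold limit with quantile normalization (log2 difference 0.97) and without the library Set NT 2 (0.98). For OsSOS1 it was 1.20 (log2 difference 0.25, SE 0.06, adjusted p = 0.00630). OsHAK5 was the one gene lower in Set libraries, at 0.264 FPKM in Set NT and 1.09 FPKM in Root NT libraries, with a log2 difference of -0.72 and an adjusted p of 9.6e-04 but no 2-fold change on the log2(FPKM + 1) scale. With a pseudocount of 0.1 it was called lower (log2 difference -1.72, adjusted p = 0.00187). What separates the Root from the Set libraries is not given in the sources used here, so growth, dissection, extraction and sequencing cannot be told apart. In bulk roots, fewer cells of a type and less RNA per cell cannot be told apart either.

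The same ratios in ROX roots, given as values with no test of their own, were 41.7 for OsHKT1;5, 8.22 for OsHKT2;1, 5.11 for OsHAK1, 2.98 for OsNHX1, 2.94 for OsAKT1 and 1.06 for OsSOS1. OsHAK5 was 9.49-fold higher in Root ROX than in Set ROX libraries. The order of levels changed accordingly. In Root ROX libraries it ran from OsSOS1 (62.5 FPKM) over OsHAK1 (18.0), OsHKT2;1 (5.01), OsAKT1 (4.29), OsNHX1 (4.06) and OsHAK5 (2.27) to OsHKT1;5 (0.547), where OsAKT1 and OsNHX1 overlapped. In Root NT libraries it ran from OsSOS1 (61.3 FPKM) over OsHAK1 (16.6), OsAKT1 (6.44), OsNHX1 (1.91), OsHKT2;1 (1.45) and OsHAK5 (1.09) to OsHKT1;5 (0.732), and no neighbours overlapped. In Set ROX libraries OsHAK1 led with 91.9 FPKM, before OsSOS1 (66.5), OsHKT2;1 (41.1), OsHKT1;5 (22.8), OsAKT1 (12.6), OsNHX1 (12.1) and OsHAK5 (0.239), where OsAKT1 and OsNHX1 again overlapped. In Set NT libraries the order was OsHAK1 (76.6 FPKM), OsSOS1 (73.3), OsHKT2;1 (48.5), OsHKT1;5 (15.6), OsAKT1 (15.0), OsNHX1 (10.4) and OsHAK5 (0.264). There the first pair and the pair of OsHKT1;5 and OsAKT1 overlapped.

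The transcript table splits OsHAK1, OsSOS1 and OsNHX1 further, and its values are given here without a test. Transcript -01 of OsHAK1 was at 12.4 and 13.8 FPKM in Root ROX and 66.3 and 103 FPKM in Set ROX libraries, against 11.6 and 11.6 FPKM in Root NT and 62.8 and 76.3 FPKM in Set NT libraries. Transcript -03, which starts at 19887940 where -01 starts at 19886674, was at 5.25 and 4.42 FPKM in Root ROX and 6.54 and 7.46 FPKM in Set ROX libraries, against 4.85 and 5.07 FPKM in Root NT and 6.53 and 7.61 FPKM in Set NT libraries. The higher level of OsHAK1 in Set libraries thus lay almost entirely in transcript -01, and the share of -03 was 24.2% to 30.4% in Root and 6.73% to 9.42% in Set libraries.

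For OsNHX1, transcript -02 was at 3.51 and 3.44 FPKM in Root ROX and 9.20 and 11.1 FPKM in Set ROX libraries, against 2.05 and 1.49 FPKM in Root NT and 6.70 and 8.23 FPKM in Set NT libraries. Its ROX values lay above the NT values of the same style. Transcript -01 went the other way in the Set libraries, at 2.17 and 1.71 FPKM in ROX, against 2.77 and 3.11 FPKM in NT libraries. In the Root libraries it was at 0.578 and 0.598 FPKM in ROX, against 2.2e-05 and 0.275 FPKM in NT libraries. OsSOS1 was carried by transcript -02, with 91.3% to 97.0% of its FPKM in every library. How the authors' quantification divided fragments between overlapping transcripts is not given in the sources used here.

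**Figure D3:**
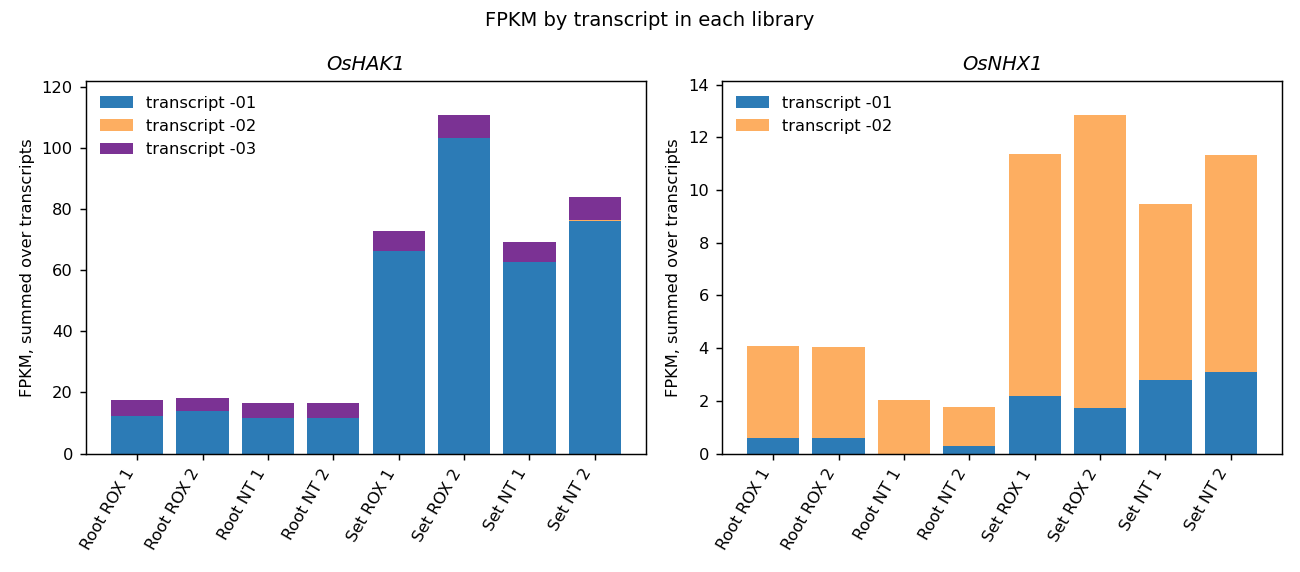
FPKM of each annotated transcript of OsHAK1 and OsNHX1, stacked, in the 8 libraries, with Root ROX, Root NT, Set ROX and Set NT libraries from left to right. Transcript -03 of OsHAK1 stays between 4.42 and 7.61 FPKM while transcript -01 spans 11.6 to 103 FPKM, and transcript -02 of OsHAK1, at most 0.116 FPKM, is too low to be seen.

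A list of 45 other loci of potassium and sodium transport was examined alongside, made up of other HKT, HAK/KUP and NHX genes, Shaker and TPK potassium channels, and CBL and CIPK genes, whose products regulate SOS1 and AKT1. Of these, 44 were in the table (the other was not analysed here) and 29 had a mean of at least 0.5 FPKM: 2 of 5 HKT, 15 of 21 HAK/KUP, 5 of 11 channel, 3 of 4 NHX and 4 of 4 CBL or CIPK loci. On log2(FPKM + 1), which understates changes of low genes, none of the 29 was called between ROX and NT roots. This held over all libraries and within each style. With a pseudocount of 0.1 none was called over all libraries, and calls within a style were not examined. The median log2 difference over all libraries was -0.06. The interaction had an adjusted p under 0.05 for 3 of the 29, a smaller share than the 21.5% of all genes, each with the higher ROX-over-NT difference in the Root libraries. Os03g0576200, annotated as potassium transporter 21, was at 1.56 and 1.51 FPKM in Root ROX, against 0.395 and 0.394 FPKM in Root NT libraries, and at 4.83 and 3.66 FPKM in Set ROX, against 5.66 and 6.25 FPKM in Set NT libraries. It was thus higher in ROX in one style and lower in the other, with ratios of mean FPKM of 3.88 and 0.713. The log2 differences were 0.86 and -0.41, and the interaction was 1.28 (SE 0.17, adjusted p = 0.00265 in limma). In the Root libraries the gene had an adjusted p of 0.00171 in limma. There it missed the 2-fold limit on the log2(FPKM + 1) scale but not by the ratio of mean FPKM. Like OsHKT2;1 it was more abundant in Set than in Root libraries, by 15.1-fold in NT roots. The others were Os06g0270200, annotated as similar to potassium transporter 24 (interaction 0.43, adjusted p = 0.0271), and Os06g0250600 of the channel list, which the table annotates by its ankyrin domain (interaction 0.41, adjusted p = 0.0461).

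In NT roots, 4 of the 29 loci were called higher in Set than in Root libraries and 1 lower, beside 13.7% and 6.81% of all genes, and they are named here after their values were seen. The 4 were Os03g0576200, Os06g0270200, Os06g0250600 and Os04g0445000, annotated as similar to the outward channel SKOR that releases potassium to the xylem in Arabidopsis (log2 difference 2.11), and the 1 was Os07g0679000, annotated as similar to potassium transporter 2 (log2 difference -1.06). Os08g0206400 is annotated as similar to potassium transporter 18 and was also picked after its values were seen. On log2(FPKM + 1) it had the largest Root and the largest Set difference of the 29 loci. It was at 19.3 and 18.3 FPKM in Root ROX, against 9.57 and 9.90 FPKM in Root NT libraries, and at 7.78 and 8.06 FPKM in Set ROX, against 4.81 and 4.88 FPKM in Set NT libraries. The log2 differences of 0.88 (adjusted p = 1.2e-04) and 0.61 (adjusted p = 0.00268 in limma) were both under 2-fold. The ratios of its mean FPKM were 1.93 (Root) and 1.63 (Set). By that measure Os03g0576200 changed more in the Root libraries (3.88). Among those that changed more in the Set libraries was Os09g0448200, picked after its values were seen (0.496, with overlapping values). Os03g0752300 of the channel list, annotated as similar to a potassium channel and likewise picked after its values were seen, was the 1 of the 29 loci with all ROX libraries above all NT libraries, beside the 2.07% of all genes given above. It was at 8.997 and 9.02 FPKM in Root ROX and 9.98 and 10.6 FPKM in Set ROX libraries, against 5.64 and 5.97 FPKM in Root NT and 7.29 and 8.71 FPKM in Set NT libraries (log2 difference over all libraries 0.44, SE 0.15, adjusted p = 0.693 in limma), under the 2-fold limit.

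**Figure D4:**
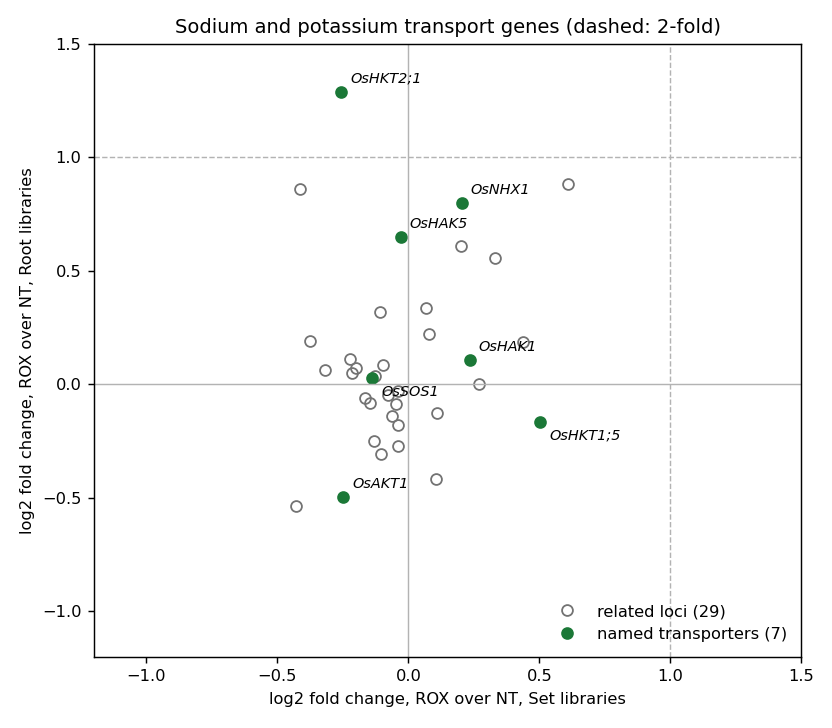
Log2 fold change of ROX over NT on log2(FPKM + 1) in the Root libraries (vertical axis) against that in the Set libraries (horizontal axis). Shown are the 7 transporter genes (filled) and the 29 related loci that passed the filter (open). On this scale OsHKT2;1 is the one point past 2-fold on either axis, at 1.29 on the vertical and -0.26 on the horizontal axis. Ratios of mean FPKM past 2-fold, such as 3.88 for Os03g0576200 in the Root libraries, can fall short of it here.

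On log2(FPKM + 1), the gene that followed each transporter gene most closely over the 8 libraries had a Pearson coefficient between 0.994 and 0.999. All coefficients in this paragraph are on that scale. For OsHKT1;5 it was Os02g0809800, annotated as a root-to-shoot phosphate transporter, and for OsNHX1 it was Os02g0658100, annotated as similar to a tonoplast intrinsic protein. For OsHKT2;1 it was Os05g0584600 (an AAA-type ATPase), for OsAKT1 Os05g0472700 (similar to a metal transport protein), for OsHAK5 Os06g0712700 (MADS-box protein SPW1), and for OsHAK1 Os02g0617800 and for OsSOS1 Os03g0753750, both annotated as hypothetical. The 8 points share the split between Root and Set libraries, and between 966 and 4556 genes had a coefficient over 0.95 with each of the genes other than OsSOS1, which had 32. Among the 7 themselves, OsHKT1;5 and OsHAK1 were the closest pair (r = 0.995), and OsHKT2;1 was closest to OsNHX1 (r = 0.985).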

How the data were processed

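The authors deposited FPKM values for 37869 genes and 44539 transcripts, with transcript lengths in bases, made from strand-specific libraries of root RNA. The submitters' processing notes name the build IRGSP-1.0, and aligner and quantification tool are not given in the sources used here. In each table, 4 columns match no sample and were not used. Columns named ERF48 were taken as ROX and those named WT or ILMI as NT. Starts were raised by 1. The genes and lists were chosen with earlier results of these data known. Named genes were all 7 transporters, OsERF48, related loci called over all libraries or with an adjusted interaction p under 0.05, and the most correlated gene of each transporter. A few other related loci are named after their values were seen, as stated beside them.

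log2(FPKM + 1) was fitted for the 26136 genes whose mean reached 0.5 FPKM with limma 3.58.1 in R 4.3.3 (eBayes with a trend), p-values being adjusted by the Benjamini-Hochberg method over all genes. One fit compared 4 ROX with 4 NT libraries, and one with a mean per style and genotype gave the Root, Set, interaction and NT comparisons. In the latter, each gene had 1 estimate of the spread over all 8 libraries. The SE and p of a Root comparison therefore also depend on the spread among Set libraries, and the reverse. The fits were tested on simulated data. Calls took a 2-fold change at an unadjusted p below 0.05, as in the study's methods, except for the NT comparison (adjusted p and 2-fold) and the interaction (adjusted p).

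Depth was estimated with Python 3.11.15 from steps of low FPKM values, of which 94.8% to 95.5% were within 0.1 of a whole fragment, and fragments per gene follow from it. OsAKT1, OsHAK1 and OsHAK5 each overlap another locus, and it is not stated whether fragments were assigned by strand. Libraries with the same number and style deviated together (r between 0.797 and 0.838), through the difference between styles: with style and genotype means removed, r was 0.0238 among Root and 0.257 among Set libraries. Alternatives were a pseudocount of 0.1, no filter or a minimum of 5 FPKM, quantile and median-ratio scaling, other variance estimates, the style as a covariate, a replicate block, averaged pairs and leaving out each library. Over a pair of libraries against a pair, an exact permutation test cannot go below p = 0.333. No sequences were used.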

Additional observations from a re-analysis of the deposited data

Results flagged for a closer look

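The difference between ROX and NT roots was itself different between Root and Set libraries, by limma's interaction test over all genes, for 3 of the 7 transporter genes. The interaction was 1.55 for OsHKT2;1 (adjusted p = 0.0387), 0.68 for OsHAK5 (adjusted p = 0.0258) and 0.60 for OsNHX1 (adjusted p = 0.0319), in each case with the higher ROX-over-NT difference in the Root libraries. All 3 were above NT in both Root ROX libraries. In the same test 21.5% of all genes passed, so that the count among the transporters is to be read against a high background. Whether the styles correspond to the ROX lines is not stated, so a difference between lines cannot be told apart from one between styles.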

How the results depend on the processing

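The call of OsHKT2;1 as higher in Root ROX libraries, which rests on the unadjusted p, was kept in 15 of 15 alternatives, with log2 differences of 1.18 to 1.71 and adjusted p-values up to 0.0840. The interaction calls were lost in 7 alternatives for OsHKT2;1, 6 for OsHAK5 and 8 for OsNHX1, with adjusted p up to 0.125, 0.110 and 0.119. Over 35 results of the 7 genes, 479 of 526 values kept direction and call. Leaving out 1 library at a time, the log2 difference over all libraries ranged from -0.58 to 0.84 for OsHKT1;5, from -0.21 to 1.34 for OsHKT2;1, from -0.30 to 0.57 for OsHAK1 and from -0.10 to 0.0017 for OsSOS1. In the Set libraries it ranged from -0.69 to 0.17 for OsHKT2;1, from -0.064 to 0.53 for OsHAK1 and from -0.13 to 0.070 for OsHAK5, which was 0.029 with quantile normalization. The interaction of OsHAK1 ranged from -0.42 to 0.17. None of these reached the limits of a call.

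Over all libraries, genes called higher numbered 121 with a minimum of 5 FPKM, 343 with the style as a covariate and 76 with pairs averaged, against 196, and those called lower 124 with a pseudocount of 0.1, 17 with a minimum of 5 FPKM, 82 with the covariate, 75 with a replicate block and 19 with pairs averaged, against 41. In the Root libraries 780 (pseudocount of 0.1) and 150 (minimum of 5) were called lower, against 245. In the Set libraries 368 and 120 were called higher, against 232, and 440 and 96 lower, against 165. With the minimum of 5, 2301 were called higher in Set NT than in Root NT libraries, against 3569. Without 1 library, the counts over all libraries were 132 to 352 higher and 43 to 81 lower, the Set count 128 to 329 lower, and the interaction count 1555 to 3051 higher and 976 to 3182 lower. The replicate block changed no call of a transporter gene. The causes were not tested. OsHAK5 in Set and OsHKT1;5 in Root libraries rest on the fewest fragments (16 to 35 and 44 to 60).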
